A study of Mus musculus with 10 samples.

Results

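RNA bound to tagged ribosomes was compared with total RNA of the cerebral cortex in mice that self-administered saline. The comparison used 4 of the 10 samples of the series, chosen by their labels: 3 immunopurified (IP) replicates of ribosome-bound RNA and the single input of total RNA. All were from adult S100a10-EGFP/Rpl10a mice of line ES691, in a short-access study with intravenous delivery. The other 6 samples, 3 IP from cocaine self-administration and 3 IP from yoked controls, entered the count filter, scaling factors and estimate of spread. They are given as ranges where they bear on a value. All 32531 genes in the files were considered, and 18437 had enough counts over the 10 samples to be tested. Of those tested, 17 had 0 counts in all 4 saline samples.

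Translating ribosome affinity purification (TRAP) captures polysomes that carry an EGFP-tagged ribosomal protein, Rpl10a, with antibodies against EGFP. Here regulatory sequences of S100a10 drive the tagged protein, so ribosomes of any cell that uses those sequences carry the tag. S100a10, also called p11, is a small protein of the S100 family that binds annexin A2 and helps to bring channels and receptors to the cell surface. In the cortex it is known for its expression in layer 5 projection neurons that reach the striatum and the other hemisphere, and it is also made in many connective tissue and vessel cells. The labels name the cell type of every sample as neurons.

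Gene counts were 47905856, 44997249 and 42581837 in saline IP replicates 1, 2 and 3, and 69974908 in the input. The sample names put the 3 saline IP samples on one sequencing lane and the input on another, so lane and fraction cannot be told apart. Neither the number of animals per sample nor their independence is stated in the labels, and the p-values reflect variation among these particular samples, possibly technical. The input, being 1 library, shows no variation, and the test took it to vary as the IP samples do. A bulk level cannot tell fewer cells of a type from less RNA per cell.

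Levels are CPM, the count of a gene as a share of the library, after scaling by trimmed mean of M values (TMM) factors. Changes are log2 fold changes of saline IP over input (log2FC) ± SE from the edgeR quasi-likelihood test, and a gene was called at a Benjamini-Hochberg adjusted p under 0.05. Called genes were 11.3% of those tested, with 7.07% higher in IP (1304 genes) and 4.26% lower (785 genes), and the median log2FC of all tested genes was 0.02. At an unadjusted p under 0.05 there were 4631 genes. In each of the 2089 called genes all 3 saline IP samples lay on the same side of the input, and so did the 6 IP samples of the other groups. The median log2FC was 2.54 among genes called higher and -1.57 among genes called lower. A change of 8-fold or more was reached by 520 of the genes called higher and 192 of those called lower. Many of the higher genes were scarce in the input: 568 of 1304 had under 100 input counts and 165 had under 10. Without saline replicate 1 there were 1047 genes higher and 417 lower, and 389 of the 785 lower genes were still called.

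**Figure D1:**
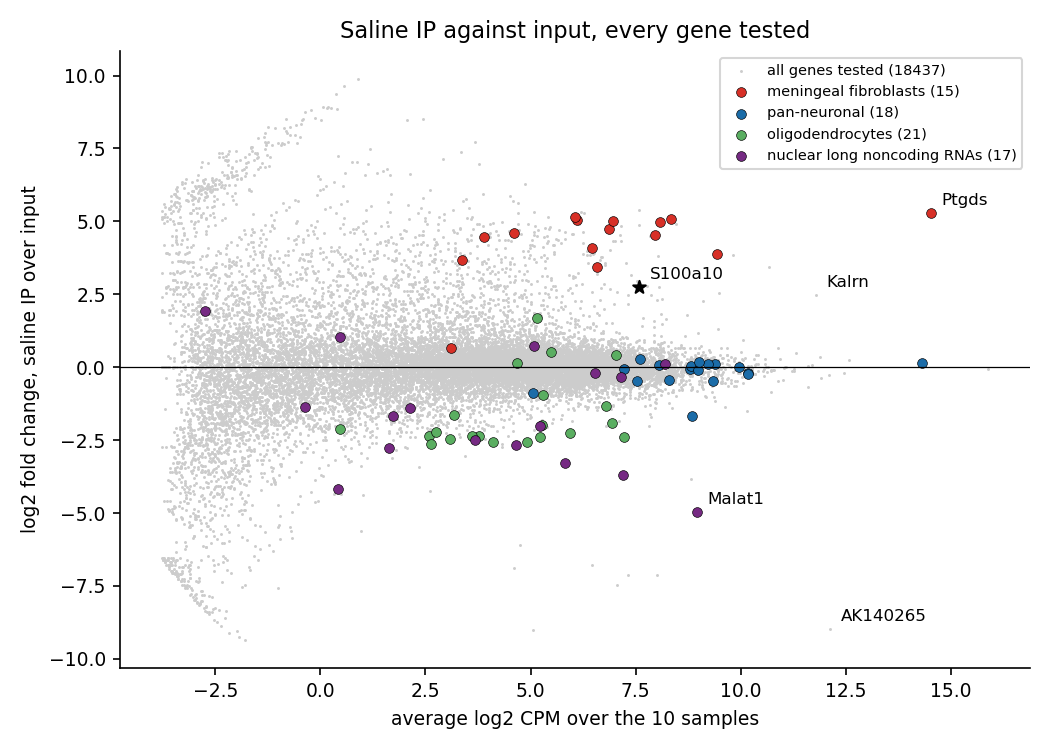
Each grey point is 1 of 18437 tested genes, with its average log2 CPM over the 10 samples on the x axis and its log2FC of saline IP over input on the y axis; coloured points are members of 4 gene lists and the star is S100a10. The meningeal fibroblast genes sit far above 0, the pan-neuronal genes near 0, and most nuclear noncoding RNAs and oligodendrocyte genes below 0.

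The transcript that marks the tagged cells rose in IP. S100a10, on the plus strand of chromosome 3 (93555080 to 93564643, GRCm38), was at 249, 282 and 173 CPM in saline IP replicates 1, 2 and 3 and at 35.2 CPM in the input. All 3 IP samples lay above the input, and the 6 IP samples of the other groups spanned 168 to 231 CPM. Its log2FC was 2.73 ± 0.31 (adjusted p = 7.52e-05). Anxa2, the annexin that forms a complex with p11 (chromosome 9, 69453620 to 69491795, plus strand), was at 97.2, 85.7 and 82.7 CPM against 4.64 CPM, a log2FC of 4.25 ± 0.27 (adjusted p = 1.12e-06). S100a11, another S100 protein, was at 105, 86.8 and 78.5 CPM against 2.24 CPM (5.33 ± 0.37). For both, every IP sample was far above the input.

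Of 11 genes whose proteins are known to bind or depend on p11, 2 rose, Anxa2 and the giant scaffold protein Ahnak (2.71 ± 0.49). One fell, the potassium channel Kcnk3 (-1.04 ± 0.28, adjusted p = 0.0292). Kcnk3 was not called without saline replicate 1 (adjusted p = 0.0688) or 3 (adjusted p = 0.0539). The glutamate receptor Grm5, another known partner, was at 63.2, 60.8 and 109 CPM against 146 CPM and did not pass (adjusted p = 0.0885). Rpl10a, the gene of the tagged protein, was at 4.72, 5.9 and 4.39 CPM against 5.14 CPM. The genome build holds no transgene, so tagged and endogenous Rpl10a cannot be told apart. Reads that align to more than 1 place were not assigned, which bears on every ribosomal protein gene with near-identical copies.

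**Figure D2:**
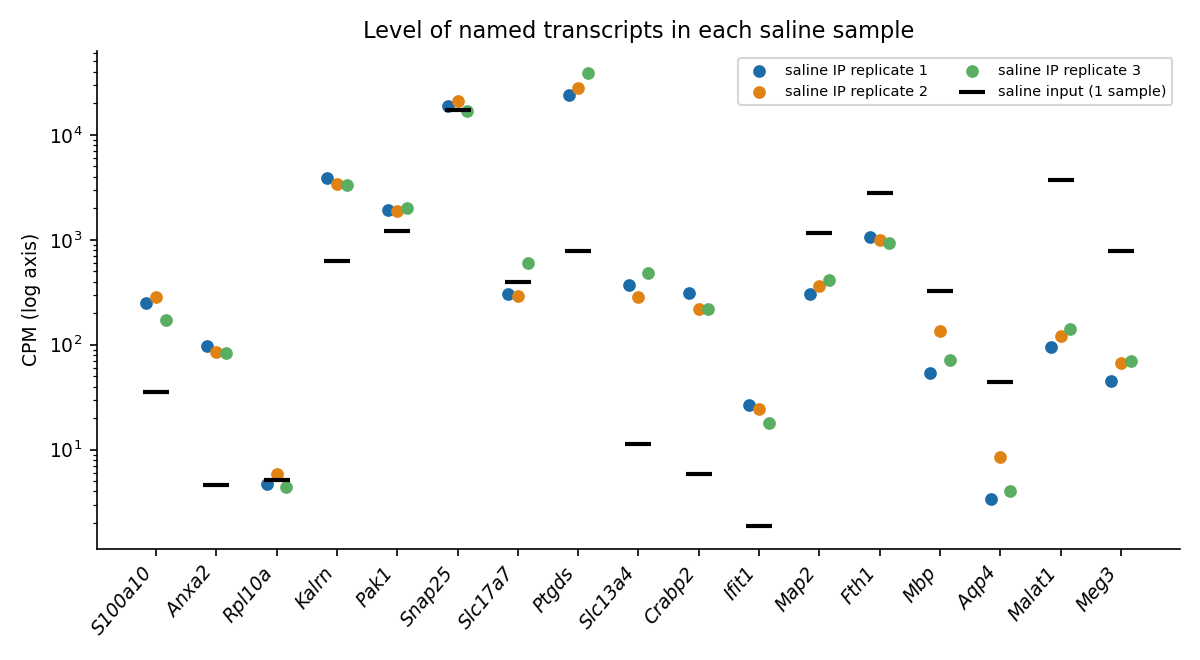
CPM on a log axis for 17 transcripts, with 1 dot for each of the 3 saline IP replicates and a black bar for the single input. Ptgds, Slc13a4 and Crabp2 lie far above the input, Snap25 and Slc17a7 around it, and Malat1, Meg3 and Aqp4 below it.

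The largest rise by level was in Ptgds, the prostaglandin D synthase that the leptomeninges make in quantity (chromosome 2, 25466709 to 25470046, minus strand). It was at 24070, 27940 and 38460 CPM in the saline IP samples and at 780 CPM in the input. This single gene took 2.49%, 2.75% and 3.8% of gene counts in IP and 0.0746% in the input. Its log2FC was 5.27 ± 0.43 (adjusted p = 7.2e-06), with replicate 3 the highest sample. Kalrn, a guanine nucleotide exchange factor of dendritic spines (chromosome 16, 33969073 to 34573532, minus strand), had the second largest rise by level. It was at 3836, 3403 and 3294 CPM against 634 CPM (2.47 ± 0.24, adjusted p = 2.82e-05). Its IP samples differed by little beside their distance from the input.

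Apod, a lipocalin, was at 967, 926 and 1294 CPM against 73.5 CPM (3.85 ± 0.34). All its IP samples were above the input, with replicate 3 highest. The imprinted proteolipid Nnat rose by 2.54 ± 0.28, the diphosphatase Nudt4 by 1.31 ± 0.22 and the heparin-binding growth factor Ptn by 1.78 ± 0.34. Pak1, a kinase of the actin cytoskeleton, was at 1904, 1867 and 2006 CPM against 1212 CPM (0.67 ± 0.17, adjusted p = 0.0243). Its IP samples were close together and above the input, but it was not called without saline replicate 1 (adjusted p = 0.0508). The identifier AK161964 rose too, at 1072, 453 and 496 CPM against 140 CPM, and has no match in the annotation used.

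Listed transcripts of the leptomeninges, the thin connective tissue layers on the brain surface, rose nearly as a block. The gene lists here and below were chosen with earlier results of these data known, and some share members. Their counts are descriptions and not independent support. Of 15 markers of meningeal fibroblasts 14 rose and 0 fell, with a median log2FC of 4.61 against 0.02 over all genes. The list's median ratio to the input was 4.43, 4.24 and 4.90 (log2) in replicates 1, 2 and 3. These 15 genes together took 2.74%, 2.95% and 4.10% of gene counts in IP and 0.0866% in the input, most of it Ptgds. Their part in the other rises was not tested. The member that did not pass, Cemip, had a log2FC of 0.65, and the other 14 spanned 3.45 (Dcn) to 5.27 (Ptgds). Serping1, the inhibitor of complement C1, was at 81.2, 74.8 and 91 CPM against 2.33 CPM (5.14 ± 0.32, adjusted p = 8.59e-07). The small proteoglycan Ogn was at 152, 121 and 178 CPM against 4.71 CPM (5.0 ± 0.44). For both, the lowest IP sample was far above the input.

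Transcription factors of mesenchyme and meninges, which set the identity of skull, dermis and meningeal cells in development, followed the same pattern. Of 27 tested, 23 rose and 0 fell, with a median log2FC of 4.70, or 4.57 with the 2 members that had 0 input counts set at a floor of 3 counts. The forkhead factor Foxc1, needed for meningeal development (chromosome 13, 31806633 to 31812476, plus strand), was at 96.9, 59.8 and 65.6 CPM against 3.12 CPM (4.57 ± 0.41, adjusted p = 1.33e-05). Zic1, a zinc finger factor of the meninges and cerebellum, was at 128, 75 and 92 CPM against 6.24 CPM (3.98 ± 0.39). In both genes replicate 1 was the highest sample, whereas replicate 3 was highest for Ptgds. The summed level of the 27 factors was 1072 CPM in replicate 1, 669 CPM in replicate 2 and 761 CPM in replicate 3, against 104 CPM in the input. The homeobox factor Alx4 rose by 5.71 ± 0.42 from 36 input counts, and Eya1, a cofactor of sine oculis homeobox proteins, by 1.5 ± 0.36. Nr2f2 (0.89 ± 0.33, adjusted p = 0.107) was among the 4 that did not pass.

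The extracellular matrix genes split by type. Of 41 collagens 14 rose and 1 fell (median log2FC 0.75). Those that rose included the fibrillar genes Col1a1, Col1a2, Col3a1 and Col5a2, the 3 chains of collagen VI (Col6a1, Col6a2, Col6a3) and the paired basement membrane chains Col4a5 and Col4a6. Col1a1 was at 17.5, 17.8 and 40.6 CPM against 1.03 CPM (4.61 ± 0.77). Replicate 3 was more than double the other IP samples, and all 3 lay above the input. The collagen that fell was Col19a1, at 6.03, 4.72 and 6.13 CPM against 15.2 CPM (-1.43 ± 0.30). Col25a1, a transmembrane collagen of neurons, was at -0.22 ± 0.27 and did not pass. Small leucine-rich proteoglycans, which coat collagen fibrils, had 9 of 11 higher and 0 lower (median 3.58). Among them Prelp was at 110, 107 and 145 CPM against 10.1 CPM (3.58 ± 0.51) and Fmod at 274, 236 and 380 CPM against 12.7 CPM (4.55 ± 0.46). Replicate 3 was highest in both, and no IP sample reached down to the input.

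Laminins and other matrix glycoproteins had 21 of 36 higher and 0 lower (median 2.24). Fibronectin (Fn1) was at 105, 73.5 and 127 CPM against 6.84 CPM (3.89 ± 0.53), and Sparc, a collagen-binding secreted protein, at 245, 227 and 277 CPM against 36.4 CPM (2.78 ± 0.32). All IP samples of both genes lay above the input. The enzymes and carriers that modify and secrete collagen were less uniform, with 10 of 29 higher and 0 lower (median 0.72). Pcolce, which speeds the removal of the procollagen C-terminal piece, rose by 4.52 ± 0.38 and the crosslinking enzyme Loxl1 by 3.61 ± 0.63. P4hb, a subunit of prolyl 4-hydroxylase found in most cells, was at 0.58 ± 0.24 (adjusted p = 0.144), and the secretory factors Mia3 (-0.55 ± 0.38) and Sec23a (-0.14 ± 0.21) did not pass either.

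Of 22 solute carriers and pumps of the brain borders, 17 rose and 1 fell (median log2FC 4.38). Slc13a4, which carries sulfate (minus strand of chromosome 6, 35267957 to 35308131), was at 372, 286 and 482 CPM against 11.3 CPM (5.07 ± 0.55). The organic anion transporter Slc22a8 was at 262, 202 and 360 CPM against 12.1 CPM (4.51 ± 0.56), and the dicarboxylate transporter Slc13a3 at 174, 176 and 298 CPM against 7.44 CPM (4.86 ± 0.53). In all of these genes replicate 3 was the highest IP sample and replicate 1 or 2 the lowest, still well above the input. Slc7a11, the cystine transporter, rose by 2.48 ± 0.39. The 1 that fell was the thyroid hormone carrier Slco1c1 (-1.40 ± 0.39, adjusted p = 0.0351), which was not called without saline replicate 1 (adjusted p = 0.0844) or 2 (adjusted p = 0.0647).

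Retinoic acid is made and bound by proteins of the meninges, and the genes for these steps were high in IP. Of 20 retinoid and prostaglandin genes 11 rose and 1 fell (median 2.58). Aldh1a2, which makes retinoic acid (chromosome 9, 71215789 to 71296243, plus strand), was at 529, 318 and 392 CPM against 13.6 CPM (4.92 ± 0.38, adjusted p = 4.21e-06). Crabp2, which carries retinoic acid in the cell (chromosome 3, 87948666 to 87953376, plus strand), was at 310, 218 and 221 CPM against 5.9 CPM (5.40 ± 0.33, adjusted p = 8.59e-07). Replicate 1 was highest in both, and no IP sample came near the input. Aldh1a1, another enzyme of retinoic acid synthesis, rose by 2.46 ± 0.33. Ptgs2, the inducible cyclooxygenase of cortical neurons, fell (-1.39 ± 0.35, adjusted p = 0.0193), but missed without saline replicate 1 (adjusted p = 0.0616). Among 27 genes of xenobiotic and aldehyde metabolism 14 rose and 0 fell (median 1.15). The aldehyde oxidase Aox3 was at 29.2, 23.2 and 24.9 CPM against 0.433 CPM (5.89 ± 0.34), a ratio that rests on 29 input counts. The glutathione transferases Gsta4, Gstm1 and Gstm5, found across brain cells, had log2FC of 0.63, -0.24 and -0.02 and did not pass.

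Secreted signals were mixed. Of 21 BMP and IGF ligands and binding proteins 7 rose and 0 fell (median 0.75), and DESeq2 called 9 higher and 2 lower. The list had 1 lower without saline replicate 3, without a filter on low counts or with the length trend removed. The growth factor Igf2 was at 667, 605 and 967 CPM against 51.2 CPM (3.87 ± 0.51), Bmp7 at 162, 134 and 209 CPM against 8.35 CPM (4.34 ± 0.47) and Bmp4 at 64.3, 46.6 and 59.6 CPM against 2.7 CPM (4.39 ± 0.44). All 3 stood clear of the input, with replicate 2 the lowest sample. Igfbp2 rose by 3.86 ± 0.34, while Igfbp6 (0.51 ± 0.23) did not pass. Of 22 Wnt ligands and secreted antagonists 3 rose and 0 fell: Wnt5a (2.50 ± 0.41), Wnt6 (5.76 ± 0.73, from 16 input counts) and the antagonist Sfrp1 (1.97 ± 0.45). DESeq2 called 6 higher and 1 lower. Dkk3, an antagonist of neurons, was at -0.52 ± 0.27 and did not pass.

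**Figure D3:**
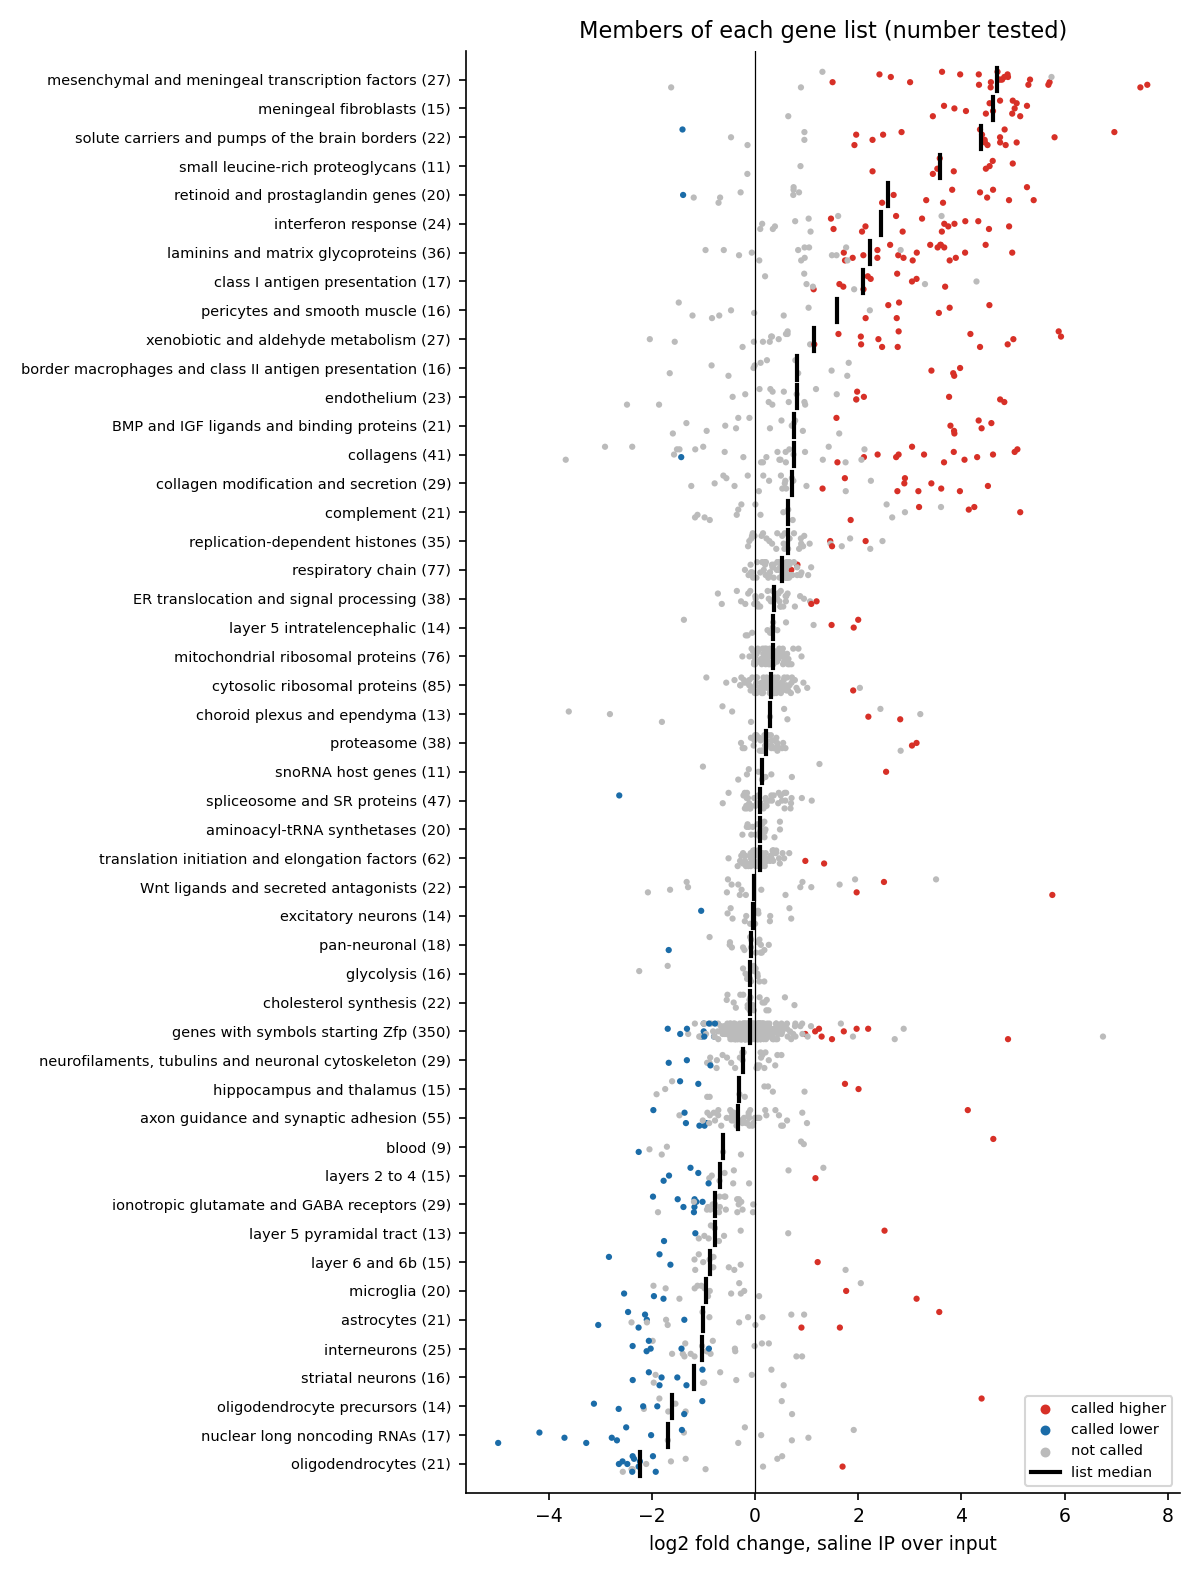
Log2FC of saline IP over input on the x axis for every tested member of the gene lists, 1 row per list with the number tested in parentheses, red for called higher, blue for called lower, grey for not called, and a black bar at the list median. Lists of brain borders and immune genes fill the upper rows, cell machineries the middle near 0, and glia, interneurons and nuclear noncoding RNAs the lower rows.

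Genes of blood vessels rose in part. Of 23 endothelial markers 6 rose and 0 fell (median 0.81). The vascular cadherin Cdh5 was at 13.2, 11.3 and 20.4 CPM against 0.523 CPM (4.83 ± 0.60, from 35 input counts), and Itm2a at 45, 42.7 and 45 CPM against 3.26 CPM (3.76 ± 0.28). All IP samples of both lay above the input. Other defining endothelial genes were low in both fractions: Pecam1 was at 0.544, 0.994 and 0.76 CPM against 0.388 CPM and Cldn5 at 0.363, 1.38 and 0.737 CPM against 0.209 CPM, and neither passed. The summed level of the 23 genes was 288 to 372 CPM in IP and 164 CPM in the input. Most of that sum was Bsg, at 169, 181 and 233 CPM against 123 CPM, which did not pass (adjusted p = 0.192). Of 16 pericyte and smooth muscle markers 7 rose and 0 fell (median 1.59). That list differed between replicates, with median ratios to the input of 0.27, 1.40 and 1.99 (log2) in replicates 1, 2 and 3. Myl9, a myosin light chain of smooth muscle, was at 87.2, 88.2 and 86.1 CPM against 7.36 CPM (3.56 ± 0.37), whereas the pericyte gene Rgs5 was at 2.72, 4.41 and 3.61 CPM against 8.27 CPM (-1.21 ± 0.39, adjusted p = 0.0665). Rgs5 lay below the input in all 3 IP samples without passing the test.

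Border macrophages and class II antigen presentation had 4 of 16 members higher and 0 lower (median 0.81), and all 4 were class II genes: Cd74, H2-Aa, H2-Ab1 and H2-Eb1. Cd74, the class II invariant chain, was at 33.4, 31.6 and 77.9 CPM against 3.27 CPM (3.86 ± 0.88, adjusted p = 0.0119). Replicate 3 was more than double the other IP samples, as in Col1a1. H2-Eb1 (3.98 ± 1.19, adjusted p = 0.0472) was not called without saline replicate 1 (adjusted p = 0.0667) or 3 (adjusted p = 0.0635). With the length trend removed 2 of the 4 were called, and H2-Eb1 was not (adjusted p = 0.0718). The macrophage receptor Mrc1 was at 0.504, 0.339 and 1.9 CPM against 1.3 CPM and did not pass. H2 genes have near-identical copies, so their counts are uncertain, as are those of the Ifitm genes. Of 21 complement genes 5 rose and 0 fell (median 0.65), among them the scavenger receptor Colec12 (4.25 ± 0.43). Of 9 blood genes 1 rose and 1 fell (median -0.62). The T cell gene Cd3e rose by 4.62 ± 0.98 (adjusted p = 0.00802), from 6 input counts. The beta-globin gene Hbb-bs was at 1.49, 3.05 and 2.92 CPM against 11.8 CPM (-2.25 ± 0.46, adjusted p = 0.00652), with every IP sample below the input.

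Interferon-response genes, which cells switch on against viruses, were higher in IP. The labels name no immune agent for these mice. Of 24 members 15 rose and 0 fell, with a median log2FC of 2.44. The list's median ratio to the input was 2.73, 2.44 and 1.82 (log2) in replicates 1, 2 and 3. Ifitm1, Ifitm2 and Ifitm3 are membrane proteins that block virus entry. Ifitm2 was at 95.1, 96.5 and 96.2 CPM against 6.57 CPM. Ifitm3 was at 176, 144 and 156 CPM against 7.9 CPM (4.33 ± 0.32), and Ifitm1 at 36.3, 32.7 and 32 CPM against 1.1 CPM (4.93 ± 0.37). Ifit3, an RNA-binding antiviral protein, was at 78.8, 58.1 and 28.7 CPM against 4.11 CPM (3.75 ± 0.51, adjusted p = 0.000309). Its replicates fell into a wide range, all above the input, with replicate 3 lowest. Ifit1 was at 26.7, 24.5 and 17.8 CPM against 1.87 CPM (3.62 ± 0.42), and Isg15, a ubiquitin-like modifier, at 13.2, 12.2 and 4.35 CPM against 0.777 CPM (3.67 ± 0.66). Both repeat the order of Ifit3, with replicate 3 lowest; these 2 genes fall outside the naming rule and were chosen after their values were seen.

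Class I antigen presentation, which shows peptides on most cell surfaces, had 10 of 17 members higher and 0 lower (median 2.10). B2m, the light chain of class I molecules, was at 363, 249 and 359 CPM against 47.8 CPM (2.76 ± 0.43, adjusted p = 0.000835). The immunoproteasome subunits Psmb8 (3.04 ± 0.36) and Psmb9 (3.13 ± 0.47) rose, and they were the 2 of 38 proteasome genes that rose, while 0 fell. Psmb9 was at 50.1, 25.9 and 20.6 CPM against 3.67 CPM, so replicate 1 was about double the others and all were above the input. The third immunoproteasome subunit, Psmb10, was at 52.4, 56.5 and 53.5 CPM against 47.2 CPM (0.20 ± 0.22) and did not pass.

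Promoters of these genes were searched for the interferon-stimulated response element, written GAAANNGAAA, on both strands of the 250 bases before each RefSeq start (GRCm38.p6). Overlapping matches were counted separately. The motif was in 44.4% of the 18 interferon-response genes with a promoter in the table (8 genes) and in 2 of 15 class I genes, against 3.46% of the 27025 genes with a promoter. Over the 12556 tested genes with a promoter it was in 3.25% (408 genes). Among genes called higher it was in 6.06% (57 of 940), among genes called lower in 1.97% (9 of 456), and among 12 genes of border macrophages and class II in 0. These shares describe letters in a window and carry no test. The 4 promoters printed here were picked because they carry the motif in genes whose values are given above; they run 5′ to 3′ on the gene's strand, and capitals mark the motif or its reverse complement.
Ifit1: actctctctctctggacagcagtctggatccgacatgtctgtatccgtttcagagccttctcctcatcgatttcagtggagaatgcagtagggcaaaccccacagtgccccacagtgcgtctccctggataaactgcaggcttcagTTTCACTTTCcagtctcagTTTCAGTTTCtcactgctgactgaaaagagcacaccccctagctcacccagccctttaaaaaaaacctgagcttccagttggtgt
Ifit3: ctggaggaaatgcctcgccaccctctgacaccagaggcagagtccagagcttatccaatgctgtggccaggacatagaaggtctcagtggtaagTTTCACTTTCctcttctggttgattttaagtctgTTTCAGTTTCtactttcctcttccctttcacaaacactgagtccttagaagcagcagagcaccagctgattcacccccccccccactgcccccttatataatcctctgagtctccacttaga
Isg15: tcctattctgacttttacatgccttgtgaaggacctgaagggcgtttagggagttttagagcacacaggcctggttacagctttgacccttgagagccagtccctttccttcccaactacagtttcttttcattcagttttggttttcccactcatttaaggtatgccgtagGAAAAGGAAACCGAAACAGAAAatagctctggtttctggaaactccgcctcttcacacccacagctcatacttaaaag
B2m: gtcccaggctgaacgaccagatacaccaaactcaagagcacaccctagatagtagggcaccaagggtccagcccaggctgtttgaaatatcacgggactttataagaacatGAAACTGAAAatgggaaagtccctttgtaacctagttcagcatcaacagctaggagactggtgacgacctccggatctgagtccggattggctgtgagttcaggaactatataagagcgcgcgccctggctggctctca
Ifit1 (chr19:34640639-34640888, plus strand) and Ifit3 (chr19:34583279-34583528, plus strand) each hold 2 matches on the opposite strand. Isg15 (chr4:156200819-156201068, minus strand) holds 3 overlapping matches that read as 1 run of capitals, and B2m (chr2:122147437-122147686, plus strand) holds 1. Stat2 also has a match but did not rise (log2FC 0.14), so within the list a match and a call did not always go together.

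The label of neurons was checked against neuronal genes, which were abundant in IP but no higher than in the input. Of 18 pan-neuronal markers 0 rose and 1 fell, with a median log2FC of -0.08. Snap25, a protein of vesicle release, was at 18700, 21190 and 16880 CPM against 17250 CPM (0.13 ± 0.21). The synaptic vesicle protein Syn1 was at 864, 942 and 970 CPM against 915 CPM (0.02 ± 0.19). In both genes the IP samples lay on both sides of the input. The 1 that fell was Map2, the dendritic microtubule protein (chromosome 1, 66175273 to 66442583, plus strand), at 306, 365 and 416 CPM against 1154 CPM (-1.67 ± 0.20, adjusted p = 9.97e-05). At an unadjusted p under 0.05 the list had 0 higher and 3 lower, and DESeq2 called 0 higher and 1 lower. The summed level of the 18 markers was 25420 to 29970 CPM in IP and 26980 CPM in the input.

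Excitatory neuron markers had 0 of 14 higher and 1 lower (median -0.04, which became 0.02 with total-count scaling, 0.003 with the 10 most abundant genes also left out, 0.007 without saline replicate 1 and -0.31 without saline replicate 3). The list's median ratio to the input was -0.27, -0.26 and 0.16 (log2) in replicates 1, 2 and 3, so replicate 3 alone lay above the input. At an unadjusted p under 0.05 there were 2 higher and 2 lower, and DESeq2 called 1 higher and 1 lower. The vesicular glutamate transporter Slc17a7 was at 304, 291 and 606 CPM against 399 CPM. Replicate 3 was about double the others, so the group straddled the input. Camk2a was at 1345, 1829 and 2061 CPM against 2357 CPM (-0.43 ± 0.22, adjusted p = 0.246). The member that fell, the pentraxin Nptx1 (-1.04 ± 0.26, adjusted p = 0.0186), missed without saline replicate 1 (adjusted p = 0.058).

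Calls in the cortical layer lists stand beside 7.07% higher and 4.26% lower over all genes, and no test compared one layer with another. The share higher was 21.4% in layer 5 intratelencephalic markers and 6.67% to 7.69% in the other layer lists. The share lower was 0% in layer 5 intratelencephalic markers and 15.4% to 33.3% in the others. DESeq2 called 3 higher and 0 lower in layer 5 intratelencephalic markers, and 3 higher and 6 lower in layers 2 to 4. It called 1 higher and 4 lower in layer 5 pyramidal tract markers, and 2 higher and 4 lower in layer 6 and 6b. Without saline replicate 2, 1 layer 5 intratelencephalic marker was lower. Against a 2-fold change 0 members of these lists were called. Of 14 markers of layer 5 intratelencephalic neurons 3 rose and 0 fell (median 0.35). Dkkl1 was at 48.2, 37.7 and 69 CPM against 12.9 CPM (2.0 ± 0.51), and Endou, an endoribonuclease, at 10.8, 8.9 and 18.6 CPM against 3.38 CPM (1.91 ± 0.51). All IP samples lay above the input, with replicate 3 highest and replicate 2 lowest in both. With the length trend removed Dkkl1 was not called (1.73, adjusted p = 0.0567). Whrn, the third, rose by 1.49 ± 0.43 (adjusted p = 0.0426), but missed without saline replicate 1 (adjusted p = 0.0823) or 3 (adjusted p = 0.0692). The layer 5 factors Etv1 (-0.18 ± 0.23) and Fezf2 (-0.14 ± 0.20) did not pass.

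Layers 2 to 4 had 1 of 15 markers higher and 5 lower (median -0.69), and 2 lower without saline replicate 1. Plcxd2, the one that rose, was at 542, 417 and 544 CPM against 222 CPM (1.17 ± 0.23, adjusted p = 0.00403). Rorb, the nuclear receptor of layer 4, was at 423, 374 and 450 CPM against 264 CPM (0.65 ± 0.21) and did not pass (adjusted p = 0.0686). For Rorb too, all IP samples lay above the input. Inhba, a subunit of activin, was at 4.78, 4.65 and 3.44 CPM against 13.6 CPM (-1.67 ± 0.30, adjusted p = 0.00261). Among 13 layer 5 pyramidal tract markers 1 rose and 2 fell (median -0.78), and 1 fell without saline replicate 1. Bcl11b, the factor that specifies subcerebral projection neurons, was at 37.9, 49.3 and 30.6 CPM against 133 CPM (-1.76 ± 0.36, adjusted p = 0.0062). Layer 6 and 6b had 1 of 15 higher and 3 lower (median -0.88), and 1 lower without saline replicate 1. The layer 6b gene Cplx3 was at 2.06, 3.43 and 0.713 CPM against 14.7 CPM, and the layer 6 gene Tle4 at 57.8, 62 and 42.1 CPM against 115 CPM (adjusted p = 0.0539). Cplx3 (-2.83 ± 0.77, adjusted p = 0.0316) missed without saline replicate 1 (adjusted p = 0.0908) or 3 (adjusted p = 0.0539). DESeq2 did not call it (adjusted p = 0.0838).

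Of 25 interneuron markers 0 rose and 6 fell (median -1.02), with 1 lower without saline replicate 1 and 10 without a filter on low counts. The GABA-synthesising enzyme Gad2 was at 280, 370 and 168 CPM against 718 CPM (-1.40 ± 0.55, adjusted p = 0.124), below the input in each sample without passing. Pvalb was at 10.3, 29.3 and 7.98 CPM against 81.9 CPM (-2.37 ± 0.68, adjusted p = 0.0394), and missed without saline replicate 1 (adjusted p = 0.127) or 3 (adjusted p = 0.0745). DESeq2 did not call Pvalb (adjusted p = 0.101). Its replicate 2 was about 3 times the others. Neuropeptide Y (Npy) went the other way at 110, 165 and 169 CPM against 84.9 CPM, without passing (0.80 ± 0.34, adjusted p = 0.152). Of 16 striatal markers 0 rose and 7 fell (median -1.17), with 3 lower without saline replicate 1 and 4 without saline replicate 3. The phosphodiesterase Pde10a was at 59.3, 71 and 58 CPM against 157 CPM (-1.33 ± 0.22, adjusted p = 0.00162), and the adenosine receptor Adora2a at 1.55, 3.75 and 2.57 CPM against 13.5 CPM (-2.37 ± 0.40). Both were below the input in every IP sample.

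Of 29 ionotropic glutamate and GABA receptor genes 0 rose and 8 fell, and all 29 had a log2FC below 0 (median -0.77). The list's median ratio was -1.15, -0.83 and -0.45 (log2) in replicates 1, 2 and 3, and 5 fell without saline replicate 1. The AMPA receptor subunit Gria2 was at 243, 248 and 391 CPM against 534 CPM (-0.86 ± 0.27, adjusted p = 0.0588), and the kainate receptor subunit Grik3 at 16.9, 26.1 and 27.7 CPM against 66.5 CPM (-1.50 ± 0.34, adjusted p = 0.0112). All IP samples of both were below the input. Among 55 genes of axon guidance and synaptic adhesion 1 rose and 6 fell (median -0.33), with 2 lower without saline replicate 1 and 10 without saline replicate 3. Cntn2, an axonal adhesion protein, fell by 1.34 ± 0.31 on the log2 scale and Sema3e, a secreted guidance signal, by 1.97 ± 0.41. Of 29 neurofilament, tubulin and cytoskeleton genes 0 rose and 3 fell: Map2, Map1b (-0.86 ± 0.24, adjusted p = 0.0316) and the spectrin Sptan1 (-1.32 ± 0.32, adjusted p = 0.016). That list had 13 members above 0 and 16 below (median -0.24), with 1 lower without saline replicate 1 and 5 lower without saline replicate 3, by DESeq2, with upper-quartile scaling and with either other count filter. With the length trend removed Map1b was at -0.47 (adjusted p = 0.0853). Map1b missed without saline replicate 1 (adjusted p = 0.0925) or 2 (adjusted p = 0.0553), and Sptan1 without saline replicate 1 (adjusted p = 0.0586). Fth1, the ferritin heavy chain that stores iron (chromosome 19, 9980598 to 9985098, plus strand), was at 1065, 994 and 925 CPM against 2787 CPM (-1.49 ± 0.16, adjusted p = 6.13e-05), with the IP samples close together and far below the input.

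Oligodendrocyte markers had 1 of 21 higher and 10 lower (median -2.23). The list's median ratio to the input was -2.78, -1.40 and -2.38 (log2) in replicates 1, 2 and 3. The count of lower members was 4 without saline replicate 1 and 5 without saline replicate 3 or by DESeq2. Myelin basic protein (Mbp) was at 54.1, 135 and 71.2 CPM against 329 CPM (-1.92 ± 0.40, adjusted p = 0.00689). Replicate 2 was its highest IP sample, and every IP sample was below the input. The 1 member called higher was gelsolin (Gsn), an actin-severing protein also made outside oligodendrocytes, which rose by 1.70 ± 0.31. In all, 4 members had a log2FC above 0 and 17 below. Enpp2 was at 109, 120 and 163 CPM against 96.8 CPM (0.43 ± 0.27) and did not pass. Oligodendrocyte precursors had 1 of 14 higher and 6 lower (median -1.61), and 2 lower without saline replicate 1. The receptor phosphatase Ptprz1 was at 6.63, 13.2 and 12 CPM against 66.3 CPM (-2.64 ± 0.37, adjusted p = 0.000373), and the proteoglycan Vcan fell by 3.12 ± 0.52 on the log2 scale. The member that rose was Bmp4, described above. Pdgfra, another precursor marker, was at 26.2, 22.6 and 30.7 CPM against 16.1 CPM (0.72 ± 0.29) and did not pass (adjusted p = 0.14). All its IP samples lay above the input, and it was called higher with the length trend removed (0.93, adjusted p = 0.0253).

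Astrocyte markers moved both ways, with 3 of 21 higher and 6 lower (median -1.02). The water channel Aqp4 was at 3.41, 8.61 and 4.06 CPM against 44 CPM (-3.04 ± 0.57, adjusted p = 0.00335), and the glutamate transporter Slc1a2 at 478, 596 and 746 CPM against 1566 CPM (-1.37 ± 0.30, adjusted p = 0.0101). Every IP sample was below the input in both. In contrast connexin 30 (Gjb6; chromosome 14, 57123303 to 57133611, minus strand) was at 226, 144 and 185 CPM against 15.5 CPM (3.57 ± 0.38, adjusted p = 4.76e-05). Apolipoprotein E (Apoe), made by astrocytes and by several border cells, was at 322, 342 and 370 CPM against 110 CPM (1.65 ± 0.21). The third that rose, Aldh1l1, was at 31.4, 31.4 and 36.6 CPM against 17.7 CPM (0.90 ± 0.22, adjusted p = 0.0186). It was not called with only the 4 saline samples (adjusted p = 0.064). Gjb6, Apoe and Aldh1l1 lay above the input in all samples, while glutamine synthetase (Glul), at 599, 920 and 613 CPM against 643 CPM, straddled it. Microglia had 2 of 20 markers higher and 3 lower (median -0.94), and 1 lower without saline replicate 1. P2ry12, a purinergic receptor, was at 1.96, 2.96 and 1.92 CPM against 8.86 CPM (-1.96 ± 0.41, adjusted p = 0.00671), whereas the secreted protein Olfml3 rose by 3.13 ± 0.45 and Tmem119 by 1.77 ± 0.38. Choroid plexus and ependyma had 2 of 13 higher and 0 lower; transthyretin (Ttr), the defining choroid transcript, was at 0.222, 0.859 and 1.24 CPM against 2.67 CPM and did not pass.

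**Figure D4:**
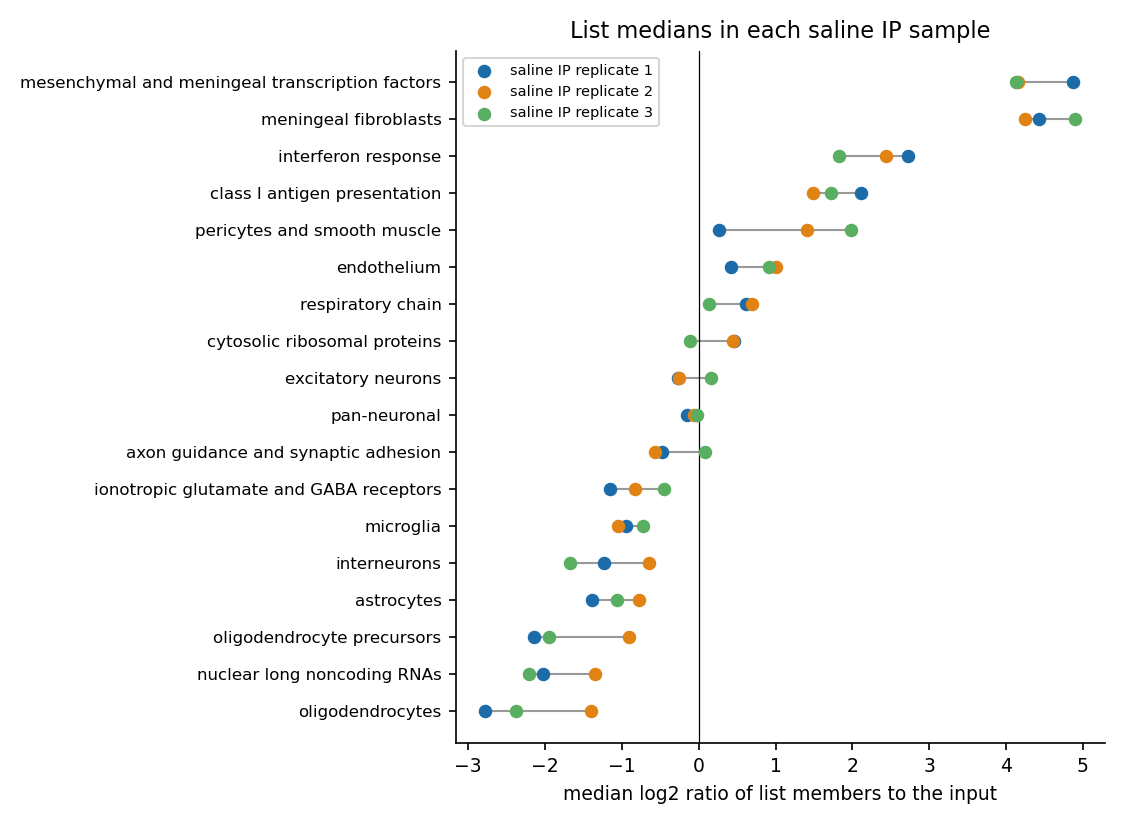
Median log2 ratio of list members to the single input for 18 gene lists, with 1 dot for each saline IP replicate and a grey line across their range. Replicate 2 lies closest to 0 in oligodendrocytes (-1.40) and interneurons, and replicate 3 is lowest in ribosomal proteins (-0.11) and the respiratory chain (0.13).

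Most of the listed long noncoding RNAs were lower in the ribosome-bound fraction, with a log2FC below 0 in 13 and above 0 in 4. Of 17 long noncoding RNAs known to stay in or near the nucleus or to have little coding role, 0 rose and 9 fell (median -1.69), and 9 fell without each replicate in turn. Malat1, a scaffold RNA of nuclear speckles (chromosome 19, 5795690 to 5802672, minus strand), was at 96, 120 and 140 CPM against 3733 CPM (-4.98 ± 0.39, adjusted p = 4.6e-06). Meg3 was at 45.5, 67.2 and 70.2 CPM against 788 CPM (-3.69 ± 0.34). Snhg11, typed as protein-coding in the annotation used, was at 26, 28.1 and 34 CPM against 283 CPM (-3.27 ± 0.24). Replicate 1 was lowest in all of these, and none overlapped the input. The 17 transcripts took 0.0832% to 0.0916% of gene counts in IP and 0.547% in the input. Peg13, at 272, 309 and 318 CPM against 276 CPM, and Gas5, a small nucleolar RNA host, with IP samples from 97.3 to 236 CPM around the input, did not pass.

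The deepest falls were in identifiers without a gene in the annotation used. AK140265 was at 53.5, 77.4 and 129 CPM against 43800 CPM (-8.98 ± 0.55, adjusted p = 8.59e-07) and took 4.19% of all input counts. DQ539915 was at 13.9, 11.2 and 27.2 CPM against 2406 CPM, X57780 at 9.79, 8.09 and 14.3 CPM against 1497 CPM and AK018753 at 7.3, 4.84 and 9.34 CPM against 1269 CPM. What these transcripts encode was not analysed here. Over all 1799 tested identifiers with no match, 1.89% rose and 10.01% fell (median -0.69), against 7.92% and 3.52% of 15572 protein-coding genes (median 0.06). Cdr1, a locus known for a circular RNA, was at 182, 203 and 161 CPM against 2620 CPM (-3.85 ± 0.35). The counts do not separate circular from linear reads, and the strand setting of the counting is not given in the sources used here, so antisense and overlapping genes are uncertain.

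Transcript length went with the change. Among protein-coding genes whose longest transcript was up to 1000 bases (637 genes) the median log2FC was 0.56, with 12.2% higher and 0.942% lower. In genes over 8000 bases (903 genes) it was -0.34, with 3.88% higher and 10.4% lower. The order held across all 5 length classes. It was weaker in replicate 3, where the medians ran from 0.23 to -0.14, than in replicate 1, where they ran from 0.60 to -0.46. Its cause was not tested. With the trend removed for each sample, 1307 genes were higher and 743 lower, and 1196 of the 1304 higher and 653 of the 785 lower genes were still called.

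**Figure D5:**
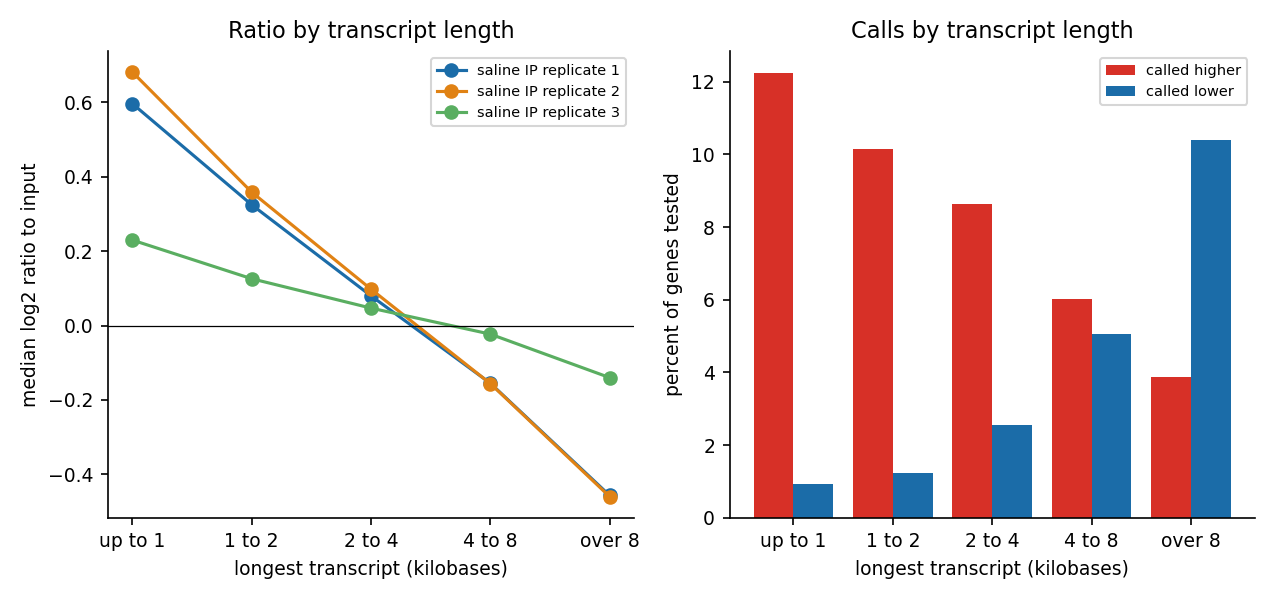
Protein-coding genes in 5 classes of longest transcript length (kilobases, x axis). The left panel gives the median log2 ratio to the input in each saline IP replicate, falling from short to long transcripts and least in replicate 3; the right panel gives the percent of genes called higher and lower.

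The translation machinery itself was close to the input. Of 85 cytosolic ribosomal protein genes 1 rose and 0 fell (median 0.32), and the median ratio was 0.46, 0.44 and -0.11 (log2) in replicates 1, 2 and 3. With the length trend removed that median was -0.07. The 1 that rose was Rps27l (1.90 ± 0.52, adjusted p = 0.0315), which missed without saline replicate 1 (adjusted p = 0.0779) or 2 (adjusted p = 0.0544). Rpl4 was at 683, 676 and 477 CPM against 601 CPM and the elongation factor Eef2 at 459, 441 and 439 CPM against 457 CPM. Neither differed from the input beyond its spread. Translation factors had 2 of 62 higher and 0 lower (median 0.10), and 0 higher without saline replicate 1, without saline replicate 2 or with only the 4 saline samples, and the 20 aminoacyl-tRNA synthetases had 0 either way (1 higher at an unadjusted p under 0.05, 0 by DESeq2). Of 77 nuclear-encoded respiratory chain genes 2 rose and 0 fell (median 0.53), and 0 rose without saline replicate 1 or without saline replicate 2. At an unadjusted p under 0.05 there were 24 higher, and DESeq2 called 6. With the length trend removed the median was 0.15 and 0 rose. Atp5g3, a subunit of the ATP synthase ring, was at 1272, 1276 and 380 CPM against 614 CPM, so replicate 3 alone lay below the input. Glycolysis (16 genes) and cholesterol synthesis (22 genes) had 0 called either way by edgeR, with medians of -0.09 each. At an unadjusted p under 0.05 glycolysis had 1 lower and cholesterol synthesis 1 higher, and DESeq2 called 1 and 0 of them. The 76 mitochondrial ribosomal proteins had 0 called (median 0.34), with 9 higher at an unadjusted p under 0.05 and 2 higher by DESeq2. Of 38 genes of entry into the endoplasmic reticulum 2 rose and 0 fell (median 0.36). DESeq2 called 4 of them higher and 1 lower, and with the length trend removed 1 was higher and 1 lower. Of 47 spliceosome genes 0 rose and 1 fell, Snrpn (-2.63 ± 0.60). Genes whose symbols start with Zfp, most of them zinc finger factors, had 9 of 350 higher and 10 lower, and 4 lower without saline replicate 1. The listed histone genes had 3 of 35 higher and 0 lower, led by the linker histone Hist1h1c (2.15 ± 0.31).

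The median SD of log2 CPM over the 3 replicates was 0.295 among genes called higher, 0.305 among genes called lower and 0.293 among the rest, and its 90th percentile was 0.64, 0.738 and 1.007. Aldoc, an aldolase of astrocytes, was at 93.6, 299 and 83.9 CPM against 512 CPM, with replicate 2 about 3 times the others, and passed only without saline replicate 2 (-2.55, adjusted p = 0.0416). Of the 175 named genes that were called, 139 stayed past the threshold without each saline IP replicate in turn. Those lost without at least 1 replicate were 12 of 114 higher and 24 of 61 lower genes.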

How the data were processed

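Ribosome-bound RNA (9 IP samples) and total RNA (1 input) were sequenced. The deposited files hold raw counts of reads per gene, made by the authors with STAR 2.0.0e and HTSeq on mm10, per the submitters' processing notes; the HTSeq version is not given in the sources used here. Rows for reads outside genes stayed out of library sizes and tests: 43.2% to 46.8% of IP reads and 38.6% of input reads aligned to more than 1 place. Counts were tested with edgeR 4.0.16 in R 4.3.3 (quasi-likelihood F test, TMM scaling, filterByExpr with a minimum count of 10, Benjamini-Hochberg adjustment), in 1 fit over all 10 samples with 6 residual degrees of freedom. DESeq2 1.42.0 and other scalings, filters, sample sets, a 2-fold threshold, a length correction and leaving out each replicate were alternatives. Coordinates are from GENCODE M21 (GRCm38), matched by symbol for 23113 genes and by synonym for 771; promoters are from RefSeq (GRCm38.p6), which held no entry for S100a10.

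Genes and the 51 lists were chosen with earlier results of these data known. Named genes are the 12 largest CPM differences and 10 largest folds (at least 100 counts) each way, per list the 4 highest levels and 3 largest folds each way, 6 genes at 0 in 1 fraction each way, and 5 by spread (average log2 CPM of at least 4). Other genes named were chosen after their values were seen.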

Additional observations from a re-analysis of the deposited data

Results flagged for a closer look

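Reads that aligned to more than 1 place are kept outside the gene counts and entered no comparison. Their share was above that of the single input in each saline IP sample: 44.86% ± 1.81 (SD, n = 3; 43.2% to 46.8%) against 38.6%. In the 6 IP samples of the other groups the share ran from 38.3%, below the input, to 41.6%. Their source was not tested.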

How the results depend on the processing

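No paired analysis was possible because the single input carries no replicate number to share with the IP samples. For saline IP against input, a test against a 2-fold change (edgeR glmTreat) left 828 genes, 684 higher and 144 lower. Leaving out each saline IP replicate gave 1464 to 2075 called genes, 1047 to 1303 higher and 417 to 772 lower, and without replicate 1 only 389 of the 785 lower genes were shared. DESeq2 called 1753 higher and 968 lower genes, and the 4 saline samples alone 1104 and 654. The other scalings and count filters gave 1191 to 1387 higher and 668 to 970 lower, and moved the median of all genes by at most 0.07 (log2). No direction was reversed. The single input limits every value: its own spread is unknown, and 165 genes called higher rest on under 10 input counts.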

Other observations

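Some transcripts were counted in only 1 fraction of the 4 saline samples. There were 271 genes with 0 input counts and a count in each saline IP sample, 45 of them with at least 10 counts in each. Kdelr3, a receptor that returns proteins to the endoplasmic reticulum, had 101, 80 and 152 counts in the saline IP samples, at least 55.4-fold higher than the input at a floor of 3 counts per library. Wfdc2, a secreted protease inhibitor of epithelia, had 149, 53 and 86 counts (at least 46.4-fold higher). Both were counted in all 6 IP samples of the other groups. In the other direction, 1114 genes had input counts and 0 in each saline IP sample, 202 of them with at least 10 input counts. AK036025 had 114 input counts (at least 77.2-fold lower, at a floor of 3 counts over the IP group), and Gm20594 had 74 (at least 50.1-fold lower). In the 6 IP samples of the other groups AK036025 had counts of 15, 3 and 2 in 3 samples, and Gm20594 had 1 in each of 2.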
